A study of Mus musculus with 4 samples.

Results

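The genes described here are 10 mouse genes that set the threshold for cell death and cell-cycle arrest: Bcl2l11, Bbc3, Pmaip1, Bax, Bcl2, Mcl1, Bcl2l1, Bcl2a1b, Bcl2a1d and Cdkn1a. They were chosen by symbol from the 31053 mouse features of the counts, and each symbol matched 1 feature. The choice was made with results of these data in view: Bcl2l11 and Cdkn1a had been seen to be higher in plasmacytoid dendritic cells of IL1α-/- hosts, so their values in those cells are given as a description and were not tested. The counts came from 4 mammary tumours grown from the HER2+ tumour line H605, of which 2000000 cultured cells were placed in the mammary pad of FVB/NJ mice aged 6 to 8 weeks. The hosts were 2 WT and 2 IL1α-/- mice, and tumours were taken on day 14, digested, enriched for live cells and run as single-cell 3′ libraries. The null allele is in the host; the transplanted H605 cells carried the same genotype in both groups as far as the labels say. The labels do not name the source or background of the null allele, and each tumour is 1 sample. The labels state that the tumours were collected as pairs on separate days but do not say which tumours shared a day, so values within a day could not be computed and collection day cannot be told apart from other differences between samples.

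The BCL2 family controls whether the outer mitochondrial membrane is opened, the step that commits a cell to apoptosis. Its guardians, which include the proteins of Bcl2, Mcl1, Bcl2l1 (BCL-XL) and the Bcl2a1 copies (A1), hold pore formers such as BAX in check, and the BH3-only proteins BIM (from Bcl2l11), PUMA (Bbc3) and NOXA (Pmaip1) bind the guardians and release that brake. Lymphocytes depend on this balance for their lifespan: BIM removes T cells and other leukocytes after cytokine withdrawal, while BCL2 and MCL1 keep them alive. Bax, Bbc3, Pmaip1 and Cdkn1a are textbook p53 targets, and Cdkn1a encodes p21, an inhibitor of cyclin-dependent kinases that is also induced without p53 in myeloid and activated cells. Plasmacytoid dendritic cells are interferon-producing cells that in the mouse are known to rely on BCL2.

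Some sequence context bears on how far the counts can be read. Bcl2a1b (chr9:89199209-89207827, + strand) and Bcl2a1d (chr9:88723285-88731914, - strand) are near-identical copies, and their coding sequences differ at 6 of 516 bases (98.8% identical in the GENCODE vM21 transcripts, GRCm38). The last 300 bases of their transcripts, where 3′ reads tend to fall, are identical at 296 positions. Coding bases 1 to 100 hold 3 of the 6 differences, shown in capitals, to let the reader see how little separates the copies:
Bcl2a1b: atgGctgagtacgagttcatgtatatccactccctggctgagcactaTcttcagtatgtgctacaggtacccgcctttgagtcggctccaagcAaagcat
Bcl2a1d: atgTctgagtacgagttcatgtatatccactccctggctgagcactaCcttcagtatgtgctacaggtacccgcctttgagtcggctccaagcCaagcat
Another copy, Bcl2a1a, is 98.6% identical to Bcl2a1d and 97.9% identical to Bcl2a1b in its coding sequence. The split of UMIs among these copies is therefore uncertain, and their values are best read together.

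The stretches upstream of Bcl2l11 and Cdkn1a are shown because these 2 genes carry the largest differences in plasmacytoid dendritic-like cells. They are the 250 bases before the first annotated start of each gene (RefSeq, GRCm38.p6, both + strand), Bcl2l11 at chr2:128125788-128126037 and Cdkn1a at chr17:29090729-29090978. Capitals mark matches to the FoxO motif GTAAACA in Bcl2l11 and to the p53 half-site (searched as its 10-letter consensus) in Cdkn1a.
Bcl2l11: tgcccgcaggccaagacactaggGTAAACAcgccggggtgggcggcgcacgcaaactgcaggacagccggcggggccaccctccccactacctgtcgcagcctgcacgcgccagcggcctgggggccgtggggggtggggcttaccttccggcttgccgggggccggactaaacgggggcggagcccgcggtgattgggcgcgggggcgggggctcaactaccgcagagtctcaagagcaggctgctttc
Cdkn1a: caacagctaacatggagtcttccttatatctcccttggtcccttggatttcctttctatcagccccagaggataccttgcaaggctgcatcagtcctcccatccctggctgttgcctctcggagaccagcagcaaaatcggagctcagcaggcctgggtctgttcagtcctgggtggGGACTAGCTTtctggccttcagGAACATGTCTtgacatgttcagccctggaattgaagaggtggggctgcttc
The Bcl2l11 stretch holds 1 FoxO match, which begins 227 bases before the start. The Cdkn1a stretch holds 2 p53 half-site matches, which begin 73 and 51 bases before the start. Both genes have another, later annotated start (promoter windows chr2:128127325-128127624 for Bcl2l11 and chr17:29093519-29093818 for Cdkn1a). Neither of those windows of 300 bases holds a match to either motif. Both strands were searched, and over 32851 RefSeq promoters of 300 bases 3.65% held the FoxO letters and 8.36% a p53 half-site. A match describes the letters of these windows and is not evidence of binding.

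The remaining genes lie at chr1:106538178-106714274 (Bcl2), chr3:95658788-95663176 (Mcl1), chr2:152780668-152831728 (Bcl2l1), chr7:45461697-45466898 (Bax) and chr7:16308393-16318205 (Bbc3), with Bcl2l11 at chr2:128126038-128162547 and Cdkn1a at chr17:29090976-29100727 (GENCODE vM21, GRCm38). All are annotated as protein coding. Bcl2l11 lies 1.14 Mb from Il1a (chr2:129299610-129309972). Any variant linked to the null allele within that region is carried by the knockout hosts as well, so for Bcl2l11 the loss of Il1a and linked variation cannot be told apart in these mice. Bcl2l1 is also on chromosome 2, at a distance of 23.5 Mb.

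The libraries held 6705368 to 29001333 UMIs, and both IL1α-/- libraries (6705368 and 15298532) were shallower than both WT libraries. Between 3130 and 3866 cells were called per sample, 14082 in all, with median UMIs per cell of 1349 and 2899 in the IL1α-/- and 3096.5 and 4177 in the WT samples. Only 12 barcodes of called cells occurred in more than 1 library. Cells were named from marker genes in 23 clusters, and each class carries the suffix "-like" for that reason. In mononuclear phagocyte-like cells the level of Il1a was 31.6 and 22.6 CPM in WT and 2.76 and 0 CPM in IL1α-/- samples. It was lower in both IL1α-/- samples, with an edgeR adjusted p of 0.0535. CPM places UMIs of a gene relative to UMIs of the class in that sample, on the counts-per-million scale with TMM factors. The total holds only genes that passed the low-count filter. In small, shallow classes the filter removes more of the total, which raises the CPM there. Values given without TMM scaling are relative to all UMIs. UMIs on the human counterparts of the 10 genes in the combined reference numbered 0 in every sample. The labels give each sample as a separate tumour, and p-values measure the spread between 2 tumours per group.

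Plasmacytoid dendritic-like cells formed 1 cluster of 461 cells, with 185 and 96 cells in the WT and 98 and 82 in the IL1α-/- samples. All 12 plasmacytoid markers, Siglech and Ccr9 among them, had UMIs in every sample, and their summed level was 17371 and 19106 CPM in WT and 17392 and 15596 CPM in IL1α-/- samples without TMM scaling. Bcl2l11 was higher in both IL1α-/- samples than in both WT samples, and Cdkn1a was too; the higher values came from IL1α-/- replicate 2 for both genes. Bcl2l11 was at 82.0 and 94.1 CPM in WT and at 215 and 463 CPM in IL1α-/- samples, from 80, 60, 51 and 187 UMIs. The ratio of the group means was 3.85-fold, and the IL1α-/- replicates differed from each other by more than the WT replicates did. Cdkn1a was at 21.5 and 28.2 CPM in WT and at 96.8 and 473 CPM in IL1α-/- samples, from 21, 18, 23 and 191 UMIs. The ratio of means was 11.5-fold, with a mean ± SD of 24.9 ± 4.74 CPM in WT and 285 ± 266 CPM in IL1α-/- (SD, n = 2 each). On the log2 scale the ratio of means was 1.95 for Bcl2l11 and 3.52 for Cdkn1a with all samples, and 1.29 and 1.96 without IL1α-/- replicate 2. In this class 2.45% of 5924 genes passed the edgeR threshold of adjusted p under 0.05, 1.94% higher and 0.506% lower in IL1α-/- hosts, and 45.5% had groups that did not overlap; nothing is read from these shares about the 2 genes, since the contrast was used to choose them.

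**Figure D1:**
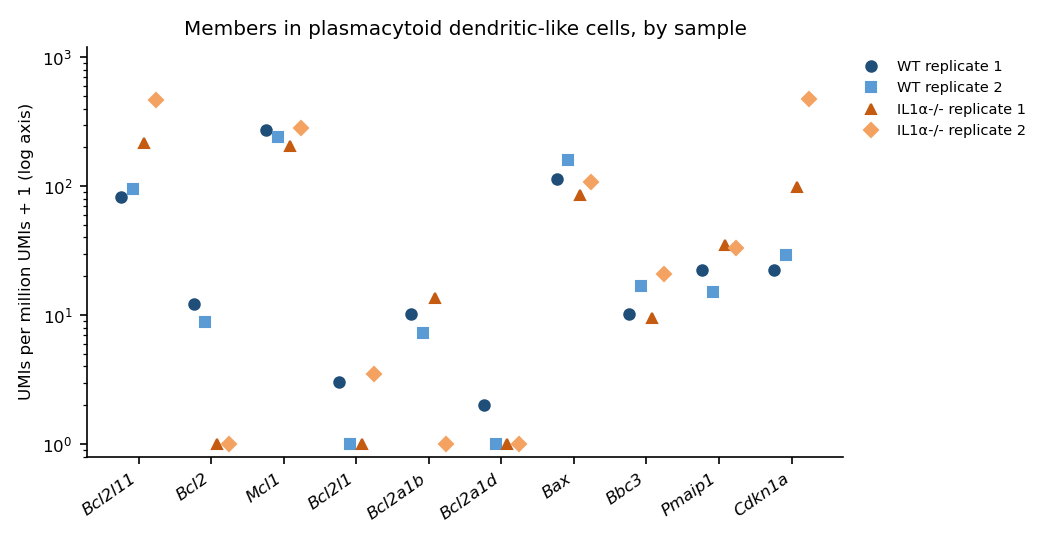
Level of each gene in plasmacytoid dendritic-like cells, one point per sample, in CPM plus 1 on a log axis; points at 1 are samples with 0 UMIs. Bcl2l11 lies at 82.0 and 94.1 in WT against 215 and 463 in IL1α-/- samples, and Cdkn1a at 21.5 and 28.2 against 96.8 and 473, while Mcl1 overlaps between the groups.

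Among the guardians, Mcl1 was the one with more than 11 UMIs per sample in plasmacytoid dendritic-like cells, and its groups overlapped. It was at 272 and 241 CPM in WT and at 202 and 280 CPM in IL1α-/- samples. Bcl2 had 11 and 5 UMIs in WT and 0 in both IL1α-/- samples. Before TMM scaling, the WT levels were 10.9 and 7.73 CPM, and counts of 0 allow up to 12.1 and 7.12 CPM (3 counts) in the IL1α-/- samples, so the bound of IL1α-/- replicate 2 lay below both WT values and that of replicate 1 did not. Exact 95% counting intervals were 5.42 to 19.4 and 2.51 to 18.0 CPM in WT and reached 14.8 and 8.75 CPM in IL1α-/- samples, so they overlapped. Bcl2l1 had at most 2 UMIs and Bcl2a1d at most 1 in any sample. Bcl2a1b had 9, 4, 3 and 0 UMIs, at which free RNA in the droplets could account for up to 51.9% of the level in a sample. The pore former Bax was at 112 and 160 CPM in WT and at 84.2 and 107 CPM in IL1α-/- samples, lower in both IL1α-/- samples by a ratio of 0.702. Pmaip1 (NOXA) was at 21.5 and 14.1 CPM in WT and at 33.7 and 32.2 CPM in IL1α-/- samples, higher in both, from 8 to 21 UMIs per sample. Bbc3 (PUMA) ranged from 8.42 to 19.8 CPM with overlapping groups. Only Bcl2l11, Cdkn1a, Mcl1, Bax and Pmaip1, 5 of the 10, passed the filter on low counts in this class.

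The UMIs of both genes came from many cells. A Bcl2l11 UMI was found in 21.1% (15.4 to 27.7) and 25% (16.7 to 34.9) of plasmacytoid dendritic-like cells in WT and in 34.7% (25.4 to 45.0) and 74.4% (63.6 to 83.4) in IL1α-/- samples, with exact Clopper-Pearson 95% intervals. A Cdkn1a UMI was found in 7.57% (4.20 to 12.4) and 9.38% (4.38 to 17.1) of cells in WT and in 16.3% (9.63 to 25.2) and 61.0% (49.6 to 71.6) in IL1α-/- samples. No cell held more than 10 UMIs of Bcl2l11 or 12 of Cdkn1a. Since depth differed, each cell was also thinned to 1000 UMIs, which left out 3 to 7 cells per sample. The shares were then 5.62% and 5.43% in WT and 18.5% and 32.9% in IL1α-/- samples for Bcl2l11, and 1.69% and 1.09% against 6.52% and 32.9% for Cdkn1a. In fibroblast-like cells of the same libraries a Bcl2l11 UMI was found in 6.64% to 26.9% of cells. Median depths were 5774 and 7135 UMIs in WT and 2551 and 5280 in IL1α-/- plasmacytoid dendritic-like cells, and 3146.5 to 10642 in fibroblast-like cells. Free RNA could account for at most 1.33% of the Bcl2l11 level and at most 9.45% of the Cdkn1a level in any sample's plasmacytoid dendritic-like cells. With 2 samples against 2, the smallest exact two-sided permutation p is 0.33. Cells with UMIs of both genes numbered 5 and 4 in WT and 9 and 41 in IL1α-/- samples. If the 2 were unrelated across cells, the numbers would be 2.95 and 2.25 in WT and 5.55 and 37.2 in IL1α-/- samples. These differences were not tested.

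Markers of other cell types were present at low levels in all 4 samples. The summed level of 12 T/NK markers was 469 and 484 CPM in WT and 495 and 282 CPM in IL1α-/- samples, and Cd3d, Cd3e, Cd3g and Trac were all at 0 in IL1α-/- replicate 2. The 12 mononuclear phagocyte markers summed to 2099 to 2140 CPM in WT and 2298 to 2640 CPM in IL1α-/- samples, higher in both IL1α-/- samples, although C1qa, C1qc and Csf1r were at 0 in both. Their part in the Bcl2l11 and Cdkn1a values was not tested beyond leaving such cells out. In a comparison added after seeing the data, of cells without a UMI of Cd3d, Cd3e, Cd3g, Trac, Nkg7, C1qa, C1qb or Lyz2, Bcl2l11 was at 73.2 and 86.8 CPM in WT and 200 and 451 CPM in IL1α-/- samples, and Cdkn1a at 21.8 and 25.6 against 81.7 and 463 CPM (without TMM scaling). The immediate early and heat shock genes, which respond to handling, also differed in this class. Jun was at 553 and 329 CPM in WT and 105 and 52.0 CPM in IL1α-/- samples, Hspa1b at 279 and 42.3 against 8.42 and 2.48 CPM, and Fosb at 160 and 113 against 375 and 223 CPM. The part of handling in the Bcl2l11 and Cdkn1a values was not tested.

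Pathway genes around the 2 were looked at in the same cells as a description. Of 30 other p53 targets 11 passed the filter on low counts, with a median log2 difference of -0.17, 5 above and 6 below 0, beside a median of 0.00 over all genes tested. Rps27l, a p53 target with a ribosomal-protein fold, was at 255 and 254 CPM in WT and 375 and 389 CPM in IL1α-/- samples, while Ccng1 (cyclin G1) was at 63.5 and 73.7 against 58.9 and 47.1 CPM. The genes of the unfolded protein and integrated stress response had a median of 0.49 over 8 of 12. Atf4, the transcription factor of the integrated stress response, was at 118 and 92.5 CPM in WT and 341 and 315 CPM in IL1α-/- samples, and Ddit3 (CHOP), which it induces, at 13.3 and 21.9 against 58.9 and 34.7 CPM. The FoxO list had a median of 0.20 over 8 of 10 genes, 6 above and 2 below 0. Irs2, an insulin signalling adaptor, was at 13.3 and 15.7 CPM in WT and 37.9 and 52.0 CPM in IL1α-/- samples. Foxo1 was lower in both IL1α-/- samples, at 62.5 and 37.6 against 33.7 and 29.7 CPM. All 4 glucocorticoid response genes that passed were positive, with a median of 0.79, among them Tsc22d3 (GILZ) at 59.4 and 34.5 against 126 and 91.7 CPM. Of the CDK inhibitors other than Cdkn1a 3 of 7 passed, 1 above and 2 below 0, with a median of -0.73. Cdkn2d was at 196 and 234 CPM in WT and 135 and 124 CPM in IL1α-/- samples. The other BCL2 family genes had a median of 0.18 over 6 of 17. Bnip3 among them was at 11.3 and 12.5 against 46.3 and 52.0 CPM. Medians were 0.07 for 11 of 16 caspase, apoptosome and inhibitor genes and -0.10 for 6 of 10 p53 regulators. The genes of this paragraph were named after their values were seen.

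Across the 5 classes with at least 20 cells in every sample, each gene had its own order of levels. Bcl2l11 was highest in T/NK-like cells (mean 276 ± 133 CPM, SD over 4 samples), followed by plasmacytoid dendritic-like cells (214 ± 177) and mononuclear phagocyte-like cells (142 ± 24.8), neighbours whose ranges overlapped. Conventional dendritic-like cells (84.4 ± 25.8) lay below mononuclear phagocyte-like cells without overlap, but their range held both WT values of plasmacytoid dendritic-like cells. Fibroblast-like cells were lowest (28.0 ± 16.9), below each of the other 4 classes without overlap. Bcl2 stood apart in T/NK-like cells at 300 ± 148 CPM, above the highest value of any other of these classes (43.7 CPM), and was lowest in plasmacytoid dendritic-like cells (4.78 ± 5.69). Mcl1 was highest in mononuclear phagocyte-like cells (828 ± 197), without overlap with conventional dendritic-like cells (477 ± 67.2). Its ranges in fibroblast-like, T/NK-like and plasmacytoid dendritic-like cells overlapped, with means of 299, 263 and 249 CPM. Bcl2a1b was found in mononuclear phagocyte-like (512 ± 92.9), conventional dendritic-like (368 ± 112) and T/NK-like cells (230 ± 115), and was at most 12.6 CPM in any plasmacytoid dendritic-like or fibroblast-like sample. Bcl2a1d followed the same split, highest in conventional dendritic-like cells (169 ± 64.2).

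Pmaip1 was highest in conventional dendritic-like cells (250 ± 103 CPM), without overlap with mononuclear phagocyte-like cells (93.8 ± 29.1). Cdkn1a was highest in mononuclear phagocyte-like (513 ± 298) and conventional dendritic-like cells (341 ± 83.1), whose ranges overlapped. Its levels in fibroblast-like (158 ± 65.4), plasmacytoid dendritic-like (155 ± 215) and T/NK-like cells (106 ± 58.2) overlapped. Plasmacytoid dendritic-like cells of WT hosts, at 21.5 and 28.2 CPM, had the lowest Cdkn1a of these classes, and those of IL1α-/- replicate 2, at 473 CPM, lay within the range of mononuclear phagocyte-like cells (260 to 918). Bax varied least among classes, from 84.4 ± 7.28 CPM in fibroblast-like to 208 ± 37.7 CPM in conventional dendritic-like cells. Bbc3 was low in each class, at 5.46 to 15.6 CPM, and Bcl2l1 ranged from 1.13 CPM in plasmacytoid dendritic-like to 33.7 CPM in T/NK-like cells. Bcl2a1b, Pmaip1 and Cdkn1a were among the 2000 genes used for clustering, and no test was made between classes.

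**Figure D2:**
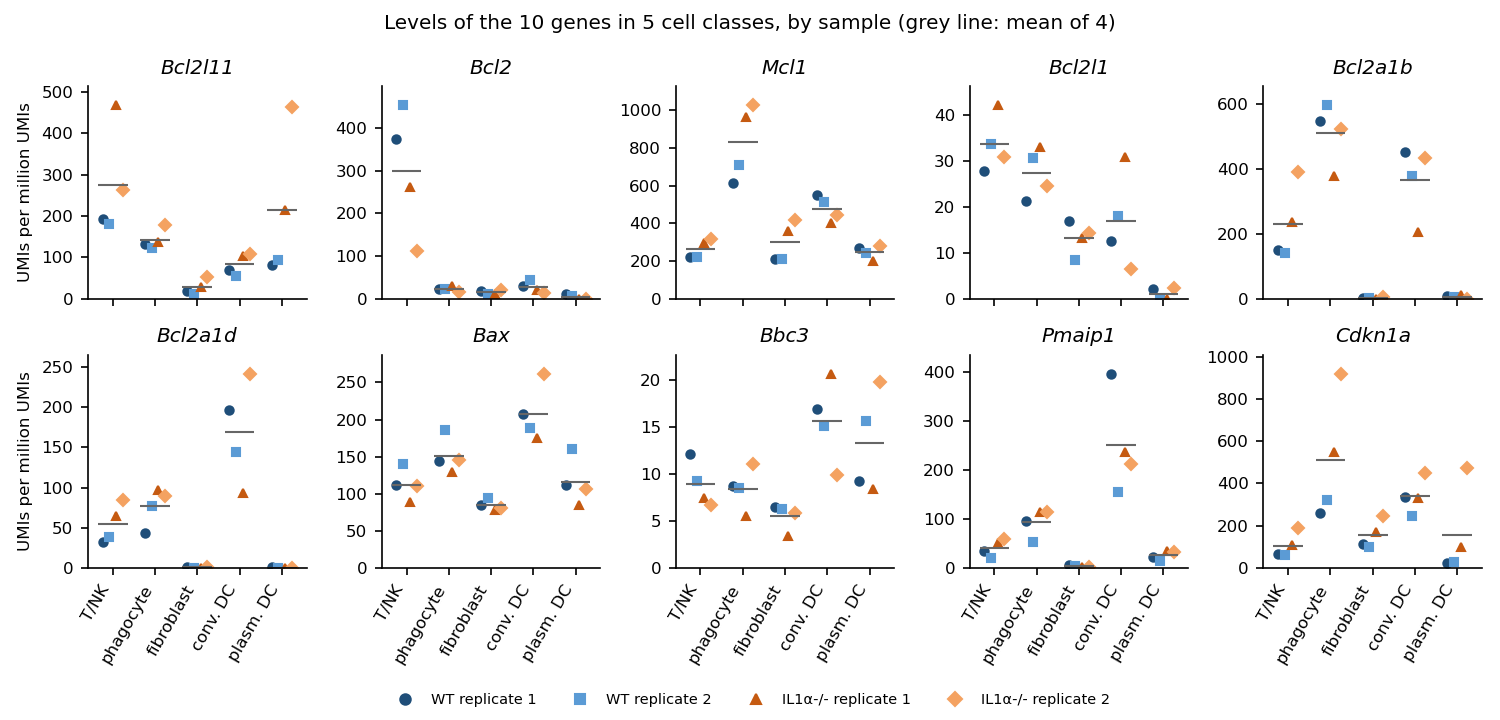
Level of each gene (CPM, linear axes from 0) in 5 cell classes, one point per sample and a grey line at the mean of 4. Bcl2 stands at 111 to 453 in T/NK-like cells and at most 43.7 elsewhere, Bcl2a1b is nearly absent from fibroblast-like and plasmacytoid dendritic-like cells, and the IL1α-/- points of Bcl2l11 and Cdkn1a sit above the WT points in plasmacytoid dendritic-like cells.

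Some classes were too small in 1 or more samples for a comparison but extend these orders. Neutrophil-like cells of the WT samples held 5870 and 5921 CPM of Mcl1 (4394 and 4532 CPM without TMM scaling). These were above every other class and sample with at least 20 cells, and neutrophils are known to depend on MCL1. Mast/basophil-like cells, shallow at a median of 888.5 UMIs, held 772 and 280 CPM of Bcl2l11 in WT and 646 CPM in IL1α-/- replicate 2. These came from 55, 9 and 17 UMIs and were 538, 183 and 473 CPM without TMM scaling. On that scale Bcl2l11 was higher in the NK gate of the IL1α-/- samples, at 652 and 637 CPM. Tumour epithelial-like cells, the H605 graft, were plentiful only in WT samples (253 and 175 cells, against 24 and 1). Their Cdkn1a level was 155 and 157 CPM in WT and 236 CPM in IL1α-/- replicate 1, from 39 UMIs, and their Bcl2l11 level was 64.8, 41.2 and 54.5 CPM. No genotype comparison was made in the tumour cells.

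In T/NK-like cells, which pool T cells with natural killer cells, 3 of the 10 genes passed the edgeR quasi-likelihood test with Benjamini-Hochberg adjustment over 10950 genes, all of them higher in IL1α-/- hosts. Over all genes 5.37% passed, 3.15% higher and 2.22% lower in IL1α-/- hosts. The 3 were Cdkn1a and the guardians Bcl2a1b and Bcl2a1d. Cdkn1a was at 63.8 and 62.7 CPM in WT and at 109 and 187 CPM in IL1α-/- samples (log2 fold change 1.23 ± 0.24 SE, adjusted p = 0.0328). Bcl2a1d rose from 31.5 and 37.9 CPM to 64.6 and 84.1 CPM (1.11 ± 0.19, adjusted p = 0.0202), and Bcl2a1b from 152 and 143 CPM to 236 and 391 CPM (1.09 ± 0.24, adjusted p = 0.0424). Groups did not overlap for 9 of the 10 genes, Bcl2l1 being the exception, but 57% of all genes had groups that did not overlap.

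Bcl2l11 did not pass in the pooled class. It was at 193 and 180 CPM in WT and at 467 and 263 CPM in IL1α-/- samples (0.96 ± 0.26, adjusted p = 0.0729), so all IL1α-/- values lay above all WT values with a wide gap between the IL1α-/- replicates. Bcl2, at 374 and 453 CPM in WT and 261.2 and 111 CPM in IL1α-/- samples, was lower in both (-1.16 ± 0.35, adjusted p = 0.0925). The other BH3-only genes pointed in different directions. Pmaip1 was at 33.9 and 20.8 CPM in WT and 49.97 and 58.0 CPM in IL1α-/- samples (1.00 ± 0.24, adjusted p = 0.0513), while Bbc3 was at 12.1 and 9.23 against 7.48 and 6.70 CPM (-0.59 ± 0.26, adjusted p = 0.200). Mcl1 was at 220 and 220 CPM in WT and 296 and 317 CPM in IL1α-/- samples (0.48 ± 0.16, adjusted p = 0.118). Bax (-0.34 ± 0.19) and Bcl2l1 (0.22 ± 0.20) were closest to 0. Over the 10 genes the median log2 fold change was 0.72, beside -0.02 over all genes.

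The make-up of this class differed between hosts, and the pooled values combine it with changes inside cell types. Cells with CD8 T-cell transcripts numbered 60 and 167 in WT and 819 and 756 in IL1α-/- samples, and cells with Foxp3 numbered 194 and 201 against 27 and 69. A cluster led by Ncr1, Klra7 and Eomes held 412 and 484 WT cells but 42 and 2 IL1α-/- cells. Without WT replicate 1 none of the 10 genes passed and without WT replicate 2 only 1 did; the adjusted p of Cdkn1a was then 0.149 and 0.107, that of Bcl2a1b 0.177 and 0.176, and that of Bcl2a1d 0.135 without WT replicate 1. Without IL1α-/- replicate 2 Bcl2l11 passed at 1.32 (adjusted p = 0.00177), and without IL1α-/- replicate 1 Bcl2 passed at -1.89 (adjusted p = 0.000662) and Pmaip1 at 1.11 (adjusted p = 0.0173).

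Gates on transcripts were set inside the T/NK-like class. In the NK gate (a Ncr1 or Klrb1c UMI and none of Cd3d, Cd3e, Cd3g, Trac or Trdc; 418 and 399 WT and 358 and 251 IL1α-/- cells), 2 of the 9 genes tested passed, in opposite directions, where 8.9% of 7708 genes did (4.64% higher, 4.26% lower). Bcl2l11 rose from 281 and 285 CPM to 654 and 643 CPM, with little spread within either group (1.19 ± 0.16, edgeR adjusted p = 9.73e-05). Bcl2 fell from 549 and 674 CPM to 329 and 334 CPM (-0.88 ± 0.17, adjusted p = 0.00274). BCL2 is one of the guardians that BIM binds. Cdkn1a, at 54.3 and 54.9 against 76.5 and 86.5 CPM, did not pass (0.59 ± 0.22, adjusted p = 0.106), and neither did Bbc3, at 21.6 and 11.9 against 11.6 and 1.70 CPM from 1 to 29 UMIs (-1.45 ± 0.65, adjusted p = 0.170); without IL1α-/- replicate 1 Bbc3 passed (-3.20, adjusted p = 0.0316). The calls of Bcl2l11 and Bcl2 held under all 12 alternatives run.

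Different clusters held this gate in the 2 groups. The cluster led by Ncr1, Klra7 and Eomes gave 152 and 164 of its WT cells but 25 and 1 of its IL1α-/- cells. The cluster led by Gzma, Serpinb9 and Prf1 gave 163 and 163 WT and 269 and 215 IL1α-/- cells. One led by Tcrg-C4, Trdc and Tcrg-C2 gave 53 and 31 against 58 and 31, and one led by Tcrg-C4, Trdc and Xcl1 37 and 30 against 2 and 0. T cells without a UMI of the excluded genes can thus enter the gate. Its median depths were 2788 and 3607 UMIs in WT and 1102.5 and 2209 in IL1α-/- samples. The part of such cells in the gate's values was not tested. Within all cells of that Gzma-led cluster, Bcl2l11 was at 394 and 362 CPM in WT and 765 and 603 CPM in IL1α-/- samples, and Bcl2 at 454 and 673 against 357 and 329 CPM (without TMM scaling), so both differences were present within 1 cluster, Bcl2l11 at 0.86 and Bcl2 at -0.72 on the log2 scale of the means. In the cluster led by Tcrg-C4, Trdc and Tcrg-C2, Bcl2l11 was at 298 and 299 against 651 and 599 CPM and Bcl2 at 506 and 687 against 374 and 263 CPM. Cdkn1a did not follow: it was at 93.8 and 87.6 against 75.4 and 59.9 CPM in that cluster. No test was made within single clusters here.

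**Figure D3:**
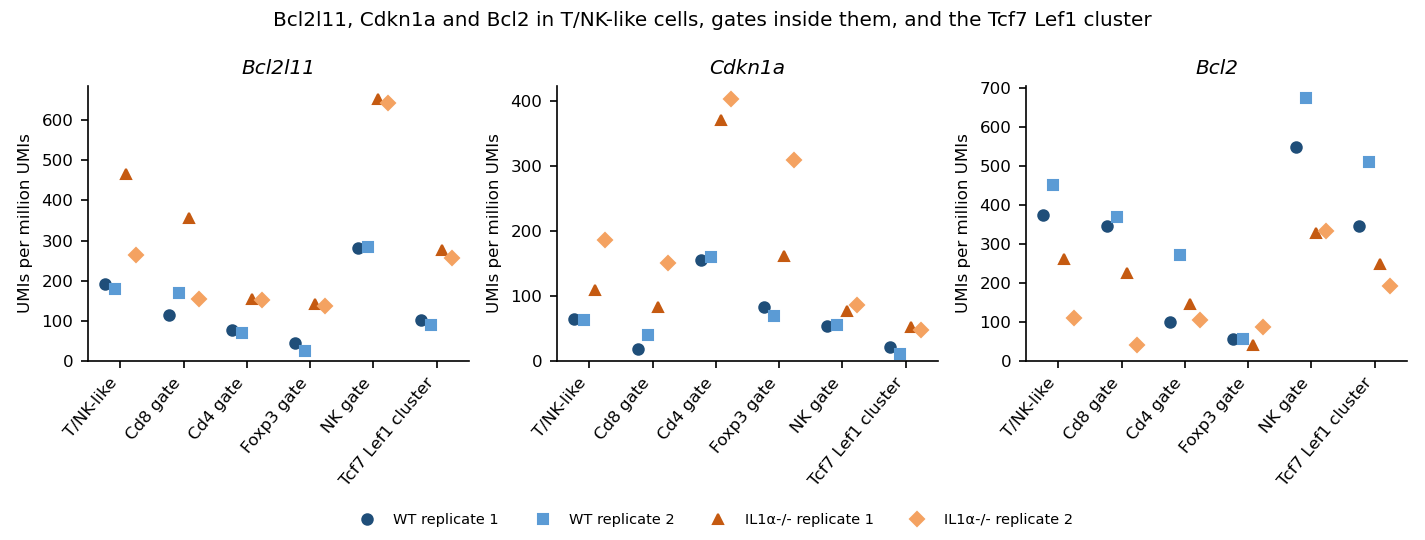
Levels of Bcl2l11, Cdkn1a and Bcl2 (CPM, linear axes from 0) in T/NK-like cells, in 4 transcript gates inside them and in the separate Tcf7 Lef1 cluster, one point per sample. In the NK gate Bcl2l11 stands at 281 and 285 in WT and 654 and 643 in IL1α-/- samples; Cdkn1a stands at 155 and 160 against 371 and 404 in the Cd4 gate.

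In the Cd4 gate (a Cd4 UMI, a T-cell receptor complex UMI, no Cd8 or Foxp3; 197 and 210 WT and 73 and 211 IL1α-/- cells), 2 of the 9 genes tested passed, both higher, where 4.33% of 6762 genes passed and 3.05% were higher; groups did not overlap for 49.5% of genes. Cdkn1a rose from 155 and 160 CPM to 371 and 404 CPM (1.31 ± 0.24, edgeR adjusted p = 0.00208), and this call held under all 12 alternatives run. Bcl2l11 rose from 77.1 and 69.3 CPM to 154 and 151 CPM (1.05 ± 0.27, adjusted p = 0.0285). Bcl2a1b, at 505 and 431 against 733 and 872 CPM, missed the threshold (0.79 ± 0.23, adjusted p = 0.0519), and Bax was lower in both IL1α-/- samples without passing, at 152 and 157 against 63.3 and 106 CPM (-0.71 ± 0.28, adjusted p = 0.177). The Bcl2l11 call was lost without WT replicate 2 (adjusted p = 0.0891), without IL1α-/- replicate 2 (0.258), with DESeq2 (0.384) and with clusters made without the markers and the 10 genes (0.0955). The number of the 10 genes that passed was 5 without WT replicate 1 and 1 without WT replicate 2 or without IL1α-/- replicate 2.

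In the Foxp3 gate, the regulatory T cells, the same pair of genes passed among 8 tested, both higher, where 0.514% of 5450 genes passed, 0.422% higher and 0.0917% lower, and 46.5% had groups that did not overlap. Bcl2l11 rose from 44.2 and 24.8 CPM to 141 and 136 CPM (2.04 ± 0.42, edgeR adjusted p = 0.0332), from 29, 25, 7 and 22 UMIs. Cdkn1a rose from 82.3 and 69.3 CPM to 161 and 310 CPM (1.79 ± 0.33, adjusted p = 0.0198), from 54, 70, 8 and 50 UMIs. Both rest on few IL1α-/- cells (27 and 69, against 194 and 201 in WT). Without IL1α-/- replicate 2 the log2 fold change of Cdkn1a was 0.97. Neither passed with DESeq2 (adjusted p = 0.342 and 0.235), without IL1α-/- replicate 2 (0.359 and 0.557) or without WT replicate 2 (0.209 and 0.142), and Bcl2l11 did not pass without doublet removal (0.0907).

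In the Cd8 gate none of the 10 genes passed, where 0.777% of 8235 genes did (0.437% lower) and 43.5% had groups that did not overlap. Cdkn1a was at 18.9 and 39.7 CPM in WT and 83.6 and 152 CPM in IL1α-/- samples (1.86 ± 0.39, edgeR adjusted p = 0.0664), so the IL1α-/- values were higher without overlap. It passed with DESeq2 (adjusted p = 0.0169), and without IL1α-/- replicate 1 (4.78e-05) or IL1α-/- replicate 2 (0.00499). Bcl2l11 overlapped between groups, at 114 and 170 against 356 and 155 CPM (0.80 ± 0.38, adjusted p = 0.453), and passed without IL1α-/- replicate 2 (1.28, adjusted p = 0.00101), while without IL1α-/- replicate 1 it was 0.078 (adjusted p = 0.977). Bcl2 was at 347 and 368 CPM in WT but differed widely between the IL1α-/- replicates, at 225 and 41.7 CPM (-1.46 ± 0.58, adjusted p = 0.343), and passed without IL1α-/- replicate 1 (-3.10, adjusted p = 1.13e-07). Pmaip1 was at 28.4 and 30.8 against 67.0 and 65.7 CPM (1.14 ± 0.28, adjusted p = 0.117), and passed without IL1α-/- replicate 2 (adjusted p = 0.0359). The gate held 60 cells in WT replicate 1, and 697 and 494 of its IL1α-/- cells lay in a cluster led by Ccl5, Ifitm1 and Cd8b1 that held 19 and 70 of its WT cells.

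A cluster of 1403 cells led by S1pr1, Tcf7, Ccr7 and Lef1 was left unnamed by the marker rule, and its test was added after the data had been seen. It shares no cells with the T/NK-like class, although 10 of 12 T/NK markers were detected in it, and its size was even across samples, with 394, 380, 311 and 318 cells. Of the 10 genes 4 passed, all higher in IL1α-/- hosts, where 1.62% of 6790 genes passed, 1.3% higher and 0.324% lower, and 47.2% had groups that did not overlap. Bcl2l11 rose from 102 and 90.5 CPM to 276 and 257 CPM (1.47 ± 0.21, edgeR adjusted p = 0.00176), a call that held under all 7 alternatives run for this cluster. Cdkn1a rose from 21.0 and 9.78 CPM to 51.6 and 46.8 CPM (1.71 ± 0.39, adjusted p = 0.0340), Bcl2a1b from 132 and 111 CPM to 237 and 228 CPM (0.94 ± 0.21, adjusted p = 0.0342), and Bcl2a1d from 16.6 and 19.6 CPM to 45.5 and 48.2 CPM (1.36 ± 0.33, adjusted p = 0.0491). Bcl2, at 345 and 510 against 249 and 193 CPM, was just short of the threshold (-0.98 ± 0.24, adjusted p = 0.0506). With DESeq2 only Bcl2l11 passed, and without WT replicate 2 Cdkn1a (adjusted p = 0.130) and Bcl2a1b (0.0855) did not; without IL1α-/- replicate 2, Bcl2a1b (0.132) and Bcl2a1d (0.223) did not, and without IL1α-/- replicate 1 Bcl2a1b (0.118) did not while Bcl2 did (0.0448). Without WT replicate 1, 6 genes passed.

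**Figure D4:**
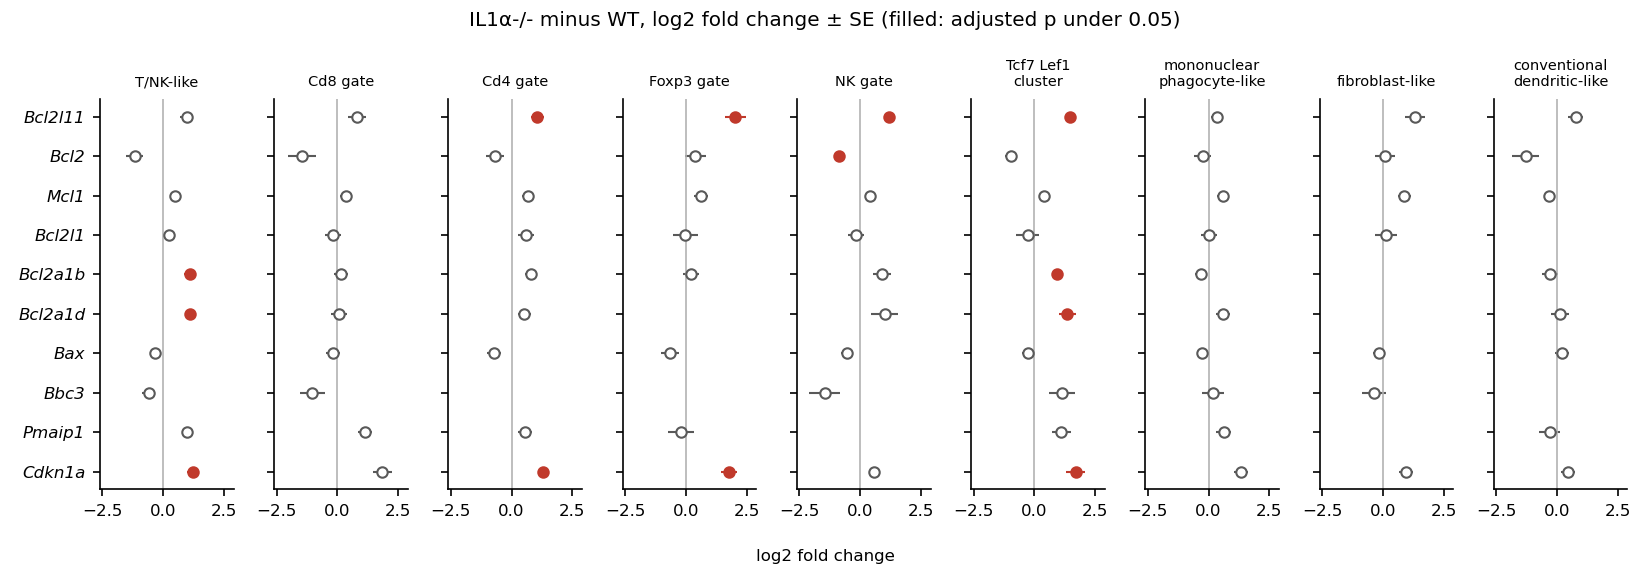
Log2 fold change of each gene, IL1α-/- minus WT, with its standard error, in 9 tested sets of cells; filled red points passed an adjusted p of 0.05 in edgeR, and a gap means that the gene failed the low-count filter there. Bcl2l11 lies above 0 in each panel and passed in the Cd4, Foxp3 and NK gates and the Tcf7 Lef1 cluster, and Bcl2 passed in the NK gate.

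In mononuclear phagocyte-like, fibroblast-like and conventional dendritic-like cells, none of the 10 genes passed. In mononuclear phagocyte-like cells (395, 704, 167 and 400 cells), where 0.201% of 8950 genes passed and 47.4% had groups that did not overlap, Cdkn1a was at 260 and 323 CPM in WT and 551 and 918 CPM in IL1α-/- samples (1.34 ± 0.29, edgeR adjusted p = 0.0994). It passed with DESeq2 (adjusted p = 0.00895) and without IL1α-/- replicate 1 (1.66, adjusted p = 0.0168). Mcl1 was at 615 and 710 against 962 and 1024 CPM (0.58 ± 0.22, adjusted p = 0.283). Bcl2l11 was at 131 and 122 against 138 and 178 CPM (0.34 ± 0.22, adjusted p = 0.529). Clusters took different shares of this class: one led by Retnla, C1qa and Ccl8 was the largest of the class in both WT samples, with 447 cells in WT replicate 2, and held 35 and 144 IL1α-/- cells, and one led by Arg1 and Chil3 held 4 and 35 WT and 13 and 153 IL1α-/- cells. Cdkn1a was higher in both IL1α-/- samples within the C1q-led cluster, at 165 and 160 against 313 and 473 CPM, and within the Lst1-led cluster, at 529 and 469 against 659 and 979 CPM (without TMM scaling, not tested).

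In fibroblast-like cells (349, 217, 286 and 253 cells) 0% of 9964 genes passed with edgeR, 487 had an unadjusted p under 0.05, and DESeq2 called 9. Bcl2l11 was at 19.8 and 12.8 CPM in WT and 27.8 and 51.6 CPM in IL1α-/- samples (1.32 ± 0.40), Cdkn1a at 115 and 100 against 172 and 244 CPM (0.96 ± 0.29) and Mcl1 at 210.5 and 209.7 against 359 and 416 CPM (0.88 ± 0.27), each with an adjusted p of 0.856. Free RNA could account for up to 17.4% of the Bcl2l11 level in a sample of this class. In conventional dendritic-like cells (75, 100, 33 and 42 cells), where 0.0407% of 4917 genes passed, Bcl2l11 was at 69.7 and 55.8 against 103 and 109 CPM (0.78 ± 0.31, adjusted p = 0.483) and Cdkn1a overlapped at 336 and 247 against 330 and 449 CPM (0.45 ± 0.27, adjusted p = 0.669).

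The difference between classes was tested for 1 pair. In a model with 8 sums, the genotype effect in mononuclear phagocyte-like minus that in T/NK-like cells differed from 0 for Bcl2a1b (-1.44 ± 0.21 on the log2 scale, edgeR adjusted p = 0.0202), which was at 547 and 597 CPM in WT and 380 and 525 CPM in IL1α-/- phagocytes (-0.33 ± 0.24, adjusted p = 0.559) while it rose in T/NK-like cells. It was 1 of 10 genes, where 0.43% of 11173 genes passed and 0.152% had a negative difference. The T/NK-like values are pooled over cell types whose numbers differed between hosts, and the part of this in the difference was not tested. The call was lost without IL1α-/- replicate 2 (-1.38, adjusted p = 0.306). For Bcl2l11, Cdkn1a and the other 7 genes a difference between these classes was not shown, and no such test was made between plasmacytoid dendritic-like cells and other classes.

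The genes of the wider pathways that passed moved in both directions. Of the 30 other p53 targets 27 were tested in T/NK-like cells, 1 rose and 3 fell, where 3.15% of all genes in that class were higher and 2.22% lower, and their median log2 fold change was 0.04 beside -0.02 over all genes. The one that rose was Ccng2 (cyclin G2), from 37.7 and 28.9 to 67.6 and 63.9 CPM (0.99, adjusted p = 0.0245). Those that fell were Aen, a nuclease induced by p53, from 23.5 and 29.8 to 13.2 and 8.41 CPM (-1.37, adjusted p = 0.0269), Dcxr (-1.01, adjusted p = 0.0397) and Ckm (-1.57, adjusted p = 0.0440). In the NK gate, where 8.9% of all genes passed, Ccng2 rose (0.90, adjusted p = 0.0427) and Aen fell (-1.48, adjusted p = 0.0455) among 17 tested, with a median of 0.30. In the Cd4 gate, where 4.33% of all genes passed, 0 of 16 passed, with a median of -0.37. None of the p53 regulators, Trp53 itself included, passed in any class or gate tested. The part of p53 in the Cdkn1a values was not tested.

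Of all genes tested, 5.37% passed in T/NK-like cells, 4.33% in the Cd4 gate and 8.9% in the NK gate. Among the 17 other BCL2 family genes, Bcl2a1a rose in T/NK-like cells with its copies, the 1 of 11 tested that passed. It went from 26.0 and 39.0 to 59.6 and 78.5 CPM (1.09, adjusted p = 0.0366). Bnip3, a mitophagy gene that responds to hypoxia, rose in the Cd4 gate from 3.85 and 25.2 to 63.3 and 72.1 CPM (2.09, adjusted p = 0.0143), 1 of 6 tested. Of the caspase, apoptosome and inhibitor genes, 1 of 16 passed in T/NK-like cells, 2 of 13 in the Cd4 gate and 1 of 16 in the NK gate. The mitochondrial protease gene Htra2 fell in T/NK-like cells (-1.02, adjusted p = 0.0338) and in the Cd4 gate (-2.15, adjusted p = 0.0451). Birc5 (survivin), which is mainly a mitosis gene, fell in the Cd4 gate (-1.47, adjusted p = 0.0286) and in the NK gate (-3.92, adjusted p = 0.000284). In the NK gate Birc5 was at 0 CPM in IL1α-/- replicate 1. Among CDK inhibitors other than Cdkn1a, Cdkn2a fell in the Cd4 gate (-2.69, adjusted p = 0.0421), 1 of 5 tested. No gene of these 3 lists passed in mononuclear phagocyte-like, fibroblast-like or conventional dendritic-like cells.

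Some genes of the FoxO, stress and glucocorticoid lists rose. Over all genes tested, 3.15% were higher in T/NK-like cells, 3.05% in the Cd4 gate, 0.422% in the Foxp3 gate and 4.64% in the NK gate, and 1.29% were lower in the Cd4 gate. Of the FoxO list 2 of 10 rose in T/NK-like cells and 1 of 7 in the Foxp3 gate, and 1 of 8 rose and 1 fell in the Cd4 gate. The median log2 fold change of the FoxO list was -0.005 in T/NK-like cells. It was 0.31 in the Cd4, 0.75 in the Foxp3, 0.85 in the NK and -0.38 in the Cd8 gate. FoxO factors are known activators of Bcl2l11, and their part in the Bcl2l11 values was not tested. Irs2, a FoxO target, rose in T/NK-like cells from 25.2 and 25.9 to 60.4 and 87.3 CPM (1.55, adjusted p = 0.0113). Irs2 also rose in the Cd4 gate (1.72, adjusted p = 0.00208), in the Foxp3 gate (3.21, adjusted p = 0.00416) and in the NK gate (1.96, adjusted p = 9.73e-05). Il7r, another FoxO target, fell in the Cd4 gate (-1.01, adjusted p = 0.0258). Foxo4 rose in T/NK-like cells (1.07, adjusted p = 0.0423). Of the stress response genes 2 of 11 rose in T/NK-like cells, 3 of 10 in the Cd4 gate, 1 of 6 in the Foxp3 gate and 1 of 8 in the NK gate. Ppp1r15a (GADD34) rose in T/NK-like cells (0.99, adjusted p = 0.0353) and in the Cd4 (1.17, adjusted p = 0.0125), Foxp3 (1.60, adjusted p = 0.0272) and NK gates (1.25, adjusted p = 0.00144), and Atf4 rose in the Cd4 gate from 71.9 and 73.3 to 181 and 180 CPM (1.31, adjusted p = 0.00549). In mononuclear phagocyte-like cells all 10 stress response genes tested had a positive log2 fold change with a median of 1.07, but none passed. Of the glucocorticoid list 3 of 6 rose in the NK gate and 1 of 7 in T/NK-like cells. Sgk1, Tsc22d3 and Per1 rose in the NK gate (1.95, 0.91 and 1.00, adjusted p = 0.000284, 0.00832 and 0.0120), and Sgk1 also rose in T/NK-like cells (1.23, adjusted p = 0.0388) and in the Tcf7 Lef1 cluster (1.38, adjusted p = 0.00597).

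Genes that respond to tissue handling differed between the groups in the same cells. In T/NK-like cells Fosb (1.23, adjusted p = 0.0223) and Egr1 (0.90, adjusted p = 0.0350) rose and Jun fell (-1.26, adjusted p = 0.0254), and in the NK gate Jun (-1.55, adjusted p = 0.00419) and Hspa1a (-3.46, adjusted p = 0.0335) fell while Junb and Ier2 rose (both 0.67, adjusted p = 0.0225 and 0.0232). In the Cd4 gate Egr1 was at 134 and 74.9 CPM in WT and 317 and 340 CPM in IL1α-/- samples (1.69, edgeR adjusted p = 0.000936). Fosb was at 167 and 140 against 380 and 444 CPM there (1.45, adjusted p = 0.00105). Fosb also rose in the Foxp3 (1.88, adjusted p = 0.0142) and Cd8 gates (1.94, adjusted p = 0.0301), and Jun fell in the Cd8 gate (-1.82, adjusted p = 0.0301). In the Cd4 gate Hspa1b stood at 274 CPM in WT replicate 1 and at 0 to 19.7 CPM in the other 3 samples. Hspa1a in the NK gate stood at 103 CPM in WT replicate 1 and at 2.32 to 11.2 CPM in the others. A single library set each of these 2 levels. Hspa1a (-3.47, adjusted p = 0.0144) and Hspa1b (-2.88, adjusted p = 0.0342) fell in the Tcf7 Lef1 cluster. Mean mitochondrial shares in T/NK-like cells were 3.45% and 3.75% in WT and 2.44% and 2.78% in IL1α-/- samples. The part of these differences in the Bcl2l11, Bcl2 and Cdkn1a values was not tested.

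Calls were also counted in the region of chromosome 2 around Il1a, with Bcl2l11 among the genes counted. Within 5 Mb of Il1a, 7 of 61 genes tested in the NK gate passed (11.5%), 2 of them higher in IL1α-/- hosts, against 8.88% of genes elsewhere. In T/NK-like cells 3 of 84 passed (3.57%, against 5.38% elsewhere), where Bcl2l11 did not pass. In the Tcf7 Lef1 cluster 1 of 48 passed (2.08%, against 1.62%), in the Cd4 gate 1 of 47 (2.13%, against 4.35%) and in the Foxp3 gate 1 of 40 (2.5%, against 0.499%). In these 3 sets the gene that passed was Bcl2l11 itself.

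Finally, the genes whose levels ran most like those of Bcl2l11 and Cdkn1a were sought over 37 sums of cells by class and sample (11 classes, 6698 genes, Pearson correlation of log2(CPM + 10)). For Bcl2l11 they were Btg1 (r = 0.84), Lbr (0.84), Grk2 (0.83), Skil (0.83) and Ptk2b (0.83). For Cdkn1a they were Ier3 (0.78), Nfe2l2 (0.77), Nampt (0.77), Eif4ebp1 (0.75) and Pacsin2 (0.75). The sums share 4 libraries and the contrast between lymphoid and other classes, so these values are a description of shared cell-type pattern.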

How the data were processed

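Droplet-based 3′ single-cell RNA counts were read from the raw matrices of 4 tumours. Per the labels' protocols and the submitters' processing notes, the authors deposited UMI counts per gene and barcode made with Cell Ranger 3.1.0, and the build named is mm10; the feature names carry a combined human and mouse reference of 64591 features. No cell annotation was used.

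Barcodes with at least 500 UMIs, 250 genes and at most 20% mitochondrial UMIs were kept. Those under 5000 UMIs were tested against the profile of barcodes with at most 100 UMIs (10000 simulations, false discovery rate 0.001), and Scrublet's highest-scoring 0.8% per 1000 cells were removed as doublets. Cells were clustered with scanpy 1.11.5 and leidenalg 0.10.2 (2000 variable genes, 30 components, 15 neighbours, resolution 1) and named from markers; a name needed 3 detected markers and 2 times the next score, and was refused where the top 10 genes held more markers of another class. A marker counted as detected at 50 CPM in 10% of cells. Counts were summed per sample and class where each sample had 20 cells, and tested with edgeR 4.0.16 (filterByExpr, TMM, quasi-likelihood) in R 4.3.3, adjusted over all genes at 0.05. DESeq2 1.42.0, no low-count filter, a replicate block, other cell filters and clusterings, and leaving out each sample were alternatives. On simulated data with 200 genes changed 4-fold, the edgeR test recovered 94% in T/NK-like, 89% in NK gate, 80% in mononuclear phagocyte-like and 41.5% in fibroblast-like cells. It recovered 74.5% in the Cd4 gate, 64.5% in the Foxp3 gate and 65% in conventional dendritic-like cells. False calls numbered 24 beside 160 recovered genes in mononuclear phagocyte-like, 12 beside 83 in fibroblast-like and 14 beside 188 in T/NK-like cells. Smaller changes were not simulated. Intervals and the floor of 3 counts cover counting error only.

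The 10 genes, the gene lists and the markers were chosen with earlier results of these data known. Beyond the 10, the genes named are those of the lists with the smallest p among adjusted p under 0.05, up to 6 per list and class, and the 5 genes most like Bcl2l11 and Cdkn1a; the list genes given for plasmacytoid dendritic-like cells were named after their values were seen. Gene positions are from GENCODE vM21. 1 gene of the lists is not reported here.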

Additional observations from a re-analysis of the deposited data

Results flagged for a closer look

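The genotype effect on Bcl2a1b differed between mononuclear phagocyte-like and T/NK-like cells by -1.44 on the log2 scale (edgeR adjusted p = 0.0202), by a test of the difference itself. It was lower in both IL1α-/- samples in phagocytes, without passing there, and higher in both in the pooled T/NK-like cells. In the Cd8 gate it was at 268 and 363 CPM in WT and 284 and 426 CPM in IL1α-/- samples (0.16, edgeR adjusted p = 0.886). The log2 fold change was 0.22 in the Foxp3 gate (adjusted p = 0.831), 0.79 in the Cd4 gate (0.0519) and 0.90 in the NK gate (0.125). Cell numbers in the gates differed between hosts, and their part in the Bcl2a1b difference was not tested. Reads of Bcl2a1b, Bcl2a1d and Bcl2a1a cannot be fully told apart. With 2 samples per group no sample could be examined as an outlier within its group.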

How the results depend on the processing

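Among the 10 genes, the number passing in T/NK-like cells was 3, and 5 with DESeq2, 6 without the low-count filter and 6 with the replicate block. In mononuclear phagocyte-like cells it was 0, and 1 (Cdkn1a) with DESeq2 or without the filter; in fibroblast-like cells 0, and 1 (Bcl2l11) without the filter. In the Cd8 gate it was 0, and 1 with DESeq2, 3 without the filter, 1 with the replicate block and 1 with cells gated one by one. The Cd4 gate went from 2 to 1 with DESeq2, the Foxp3 gate from 2 to 0 with DESeq2 and 1 without doublet removal, the Tcf7 Lef1 cluster from 4 to 1 with DESeq2, and the difference between phagocytes and T/NK-like cells from 1 to 2 without the filter or with clusters made without the markers and the 10 genes. Leaving out 1 sample gave 0 to 5 in T/NK-like cells, 0 to 1 in phagocytes, 0 in fibroblast-like and conventional dendritic-like cells, 0 to 3 in the Cd8 gate, 1 to 5 in the Cd4 gate, 0 to 2 in the Foxp3 gate, 2 to 3 in the NK gate, 2 to 6 in the Tcf7 Lef1 cluster and 0 to 1 for the difference. The cause of these shifts was not tested.

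The replicate numbers are shared between the groups, but the labels do not tie them to a day, and deviations of samples with the same number correlated at -0.02 to 0.41 over classes, so the block was an alternative. Over all genes it raised the calls from 588 to 1296 in T/NK-like cells and from 686 to 1196 in the NK gate and lowered them from 18 to 2 in phagocytes.

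In plasmacytoid dendritic-like cells the log2 ratio of means without 1 sample ranged from 1.29 to 2.40 for Bcl2l11, 1.96 to 4.25 for Cdkn1a, -0.34 to 0.13 for Mcl1, -0.75 to -0.23 for Bax and 0.61 to 1.22 for Pmaip1. The thinned share of cells with a Bcl2l11 UMI was higher by 20.2 percentage points in IL1α-/- samples at 1000 UMIs and by 9.67 at 500, with 13.0 to 27.4 without 1 sample (Cdkn1a, 5.14 to 31.5). The mean Bbc3 level in conventional dendritic-like cells was 15.6 CPM, and 10.0 CPM with cells gated one by one. Among the 10 genes, no log2 fold change that was followed through the alternatives changed sign. Bcl2a1b in the Cd8, Foxp3 and NK gates was not followed in this way. Genes of the wider lists, such as Irs2, Atf4, Ccng2, Birc5 and Jun, were looked at in the main fit only. Whether their calls hold under the alternatives was not tested.

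Over all genes, the number called under the alternatives ranged from 61 to 1737 in T/NK-like cells (588 as reported), 206 to 1196 in the NK gate (686), 91 to 606 in the Cd4 gate (293), 9 to 449 in the Cd8 gate (64), 5 to 126 in the Foxp3 gate (28), 30 to 523 in the Tcf7 Lef1 cluster (110), 0 to 541 in phagocytes (18), 0 to 207 in fibroblast-like cells (0), 0 to 121 in conventional dendritic-like cells (2), 3 to 361 in plasmacytoid dendritic-like cells (145) and 0 to 332 for the difference between classes (48). The Tcf7 Lef1 cluster comparison and the plasmacytoid dendritic-like cells without other markers were chosen after seeing the data. Not run were the Foxp3 gate at 1000 UMIs per cell and the conventional dendritic-like class gated cell by cell, which left a sample under 20 cells, the other cell filters and clusterings for the Tcf7 Lef1 cluster, and the replicate block for the difference between classes.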
